A study of Homo sapiens with 16 samples.

Results

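The integrin, cadherin and CD44 genes of the SK-N-AS neuroblastoma line were described as a repertoire of adhesion receptors. They were chosen by name: every integrin alpha gene, every integrin beta gene, every gene named CDH with a number, and CD44, whatever its level. The rule took 49 of 27043 gene rows, which were 17 integrin alpha genes, 8 integrin beta genes, 23 cadherin genes and CD44. The study measured RNA in single cells with MARS-seq, which counts the ends of polyadenylated transcripts in cells sorted into separate wells. SK-N-AS is an established human line grown from a neuroblastoma, a tumour of the sympathetic nervous lineage. All cells were untreated, were kept in RPMI1640 with fetal calf serum, and were taken off the plastic with versene before sorting. The labels give 16 samples of this kind, but the columns of cells carry no sample name, so all cells form 1 pool without replicates and no test was made.

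Integrins are pairs of an alpha and a beta chain that span the membrane, bind the extracellular matrix or other cells outside, and hold the actin skeleton inside through talin, kindlin and vinculin. Which matrix protein a cell can grip depends on which alpha chain meets which beta chain. Classical cadherins bind the same cadherin on a neighbouring cell and hold actin through catenins. E-cadherin is typical of epithelia and N-cadherin of nerve and connective tissue. CD44 binds hyaluronan, and in neuroblastoma lines it is known as a surface marker of the mesenchymal state.

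The pool held 603 cells with 1537576 counts, and 13641 rows had a count. The median cell had 2106 counts, the shallowest 1000 and the deepest 42404. The cell barcodes, where they start to repeat, divide the columns into set 1 (316 cells) and set 2 (287 cells). These are not groups of the study, and of 364 distinct barcodes 239 occur in both. Levels are given as CPM, counts scaled to a total of 1000000, with 95% Poisson intervals, and shares of cells with exact 95% binomial intervals. Both cover counting error only. The floor for a count of 0 was set at 3 counts (1.95 CPM, or 0.498% of cells), and the two-sided 95% limits are 2.40 CPM and 0.610% of cells. Of 14 neuroblastic and sympathetic marker genes 13 had a count, led by SCG2 at 797 CPM. Summed levels were 76.1 CPM for 13 leukocyte markers, of which CD68 made up 54.6 CPM and PTPRC 18.9 CPM, 35.1 CPM for 10 Schwann cell markers, of which PMP22 made up 33.8 CPM and SOX10 had none, and 3.90 CPM for 10 endothelial markers. Epithelial markers summed to 406 CPM, of which KRT18 made up 334 CPM. All 9 erythroid and platelet markers were at 0.

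Few genes made up most of the repertoire's counts. Of the 49 genes 26 had a count, and 11 reached 20 CPM or more. Over the whole series 50.4% of rows had a count and 22.2% reached that level, so neither share stood far from that of all genes. ITGA6 at 21.5 CPM was just inside the line and CDH24 at 18.9 CPM just outside, with intervals that overlap. The alpha genes summed to 725 CPM (683 to 768), and ITGA3 alone made up 59.6% of their counts. The beta genes summed to 549 CPM (513 to 587), with 62.8% of counts from ITGB5. The 23 cadherin genes summed to 231 CPM (207 to 256), with 65.4% from CDH2, and CD44 by itself reached 235 CPM (212 to 261). In each family a single gene thus held more counts than all others together.

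**Figure D1:**
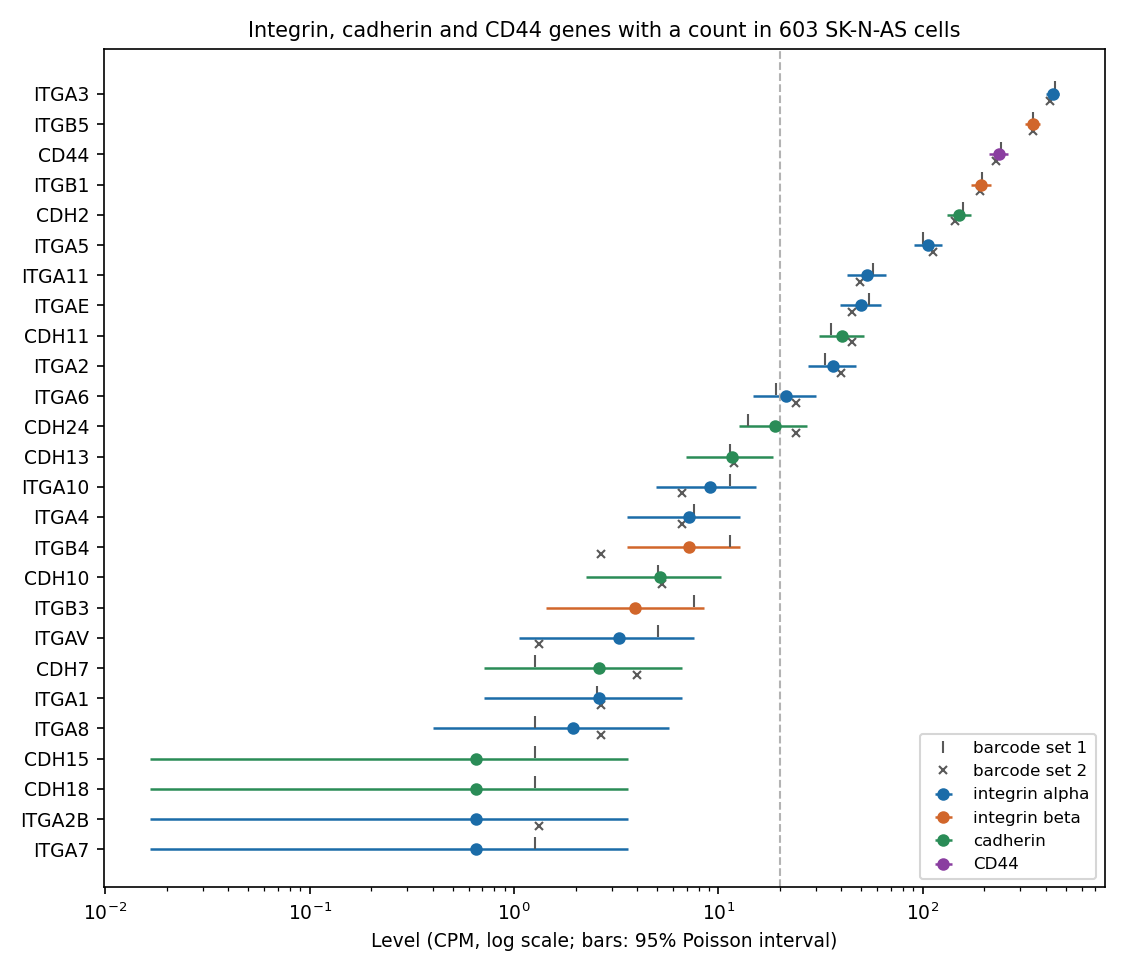
The 26 genes with a count, ordered by level in CPM on a log axis. Points show the pool of 603 cells, bars the 95% Poisson interval, small marks the same level in barcode sets 1 and 2, and the dashed line 20 CPM. Levels run from 432 CPM for ITGA3 to 0.650 CPM for 4 genes with 1 count each.

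ITGA3, ITGB5, CD44, ITGB1, CDH2 and ITGA5, in this order, were the 6 highest. The intervals of ITGA3, ITGB5 and CD44 did not overlap each other, while those of CD44 and ITGB1 did. Further down, the intervals of ITGA11, ITGAE, CDH11 and ITGA2 all overlapped each other. MARS-seq counts transcript ends, so counts do not scale with transcript length, but how well an end is captured and annotated differs between genes. Some genes that nearly all cells use were close to 0 in this table. EEF1A1, an elongation factor gene, had 5.85 CPM in a joint row while EEF2, another elongation factor gene, had 1337 CPM. CTNNB1, which encodes beta-catenin, had 3.25 CPM. These genes were picked after their values were seen. A level near 0 is therefore a statement on counts in this table and not on whether a gene was off.

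The start regions of highly counted and uncounted genes were set side by side in RefSeq promoter windows on build GRCh38.p14, of 300 bases from 250 before to 50 after the start. A window was at hand for 30 of the 49 genes, which were 9 at 20 CPM or more, 9 counted genes below that level and 12 at 0 counts. ITGA3, the gene with the most counts, CDH11 and CDH1 had none. Only the first window listed for a gene was used. Shown are 5 genes above 100 CPM, which are an alpha chain (ITGA5), both highly counted beta chains, CD44 and CDH2, and 2 beta chain genes at 0 that differ from each other, ITGB6, in a row joint with another transcript name, and ITGB8. Capitals mark GGGCGG and its complement CCGCCC, the core of a GC box, searched on both strands. The windows are ITGA5 (chr12:54419217-54419516, minus strand), ITGB5 (chr3:124901369-124901668, minus strand), CD44 (chr11:35138921-35139220, plus strand), ITGB1 (chr10:32958181-32958480, minus strand), CDH2 (chr18:28177081-28177380, minus strand), ITGB6 (chr2:160200223-160200522, minus strand) and ITGB8 (chr7:20330650-20330949, plus strand).
ITGA5: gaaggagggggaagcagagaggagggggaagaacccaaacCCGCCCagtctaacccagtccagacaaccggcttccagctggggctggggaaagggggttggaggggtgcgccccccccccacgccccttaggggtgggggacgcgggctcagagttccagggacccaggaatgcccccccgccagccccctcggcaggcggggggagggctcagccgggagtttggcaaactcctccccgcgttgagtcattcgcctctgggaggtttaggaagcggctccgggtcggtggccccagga
ITGB5: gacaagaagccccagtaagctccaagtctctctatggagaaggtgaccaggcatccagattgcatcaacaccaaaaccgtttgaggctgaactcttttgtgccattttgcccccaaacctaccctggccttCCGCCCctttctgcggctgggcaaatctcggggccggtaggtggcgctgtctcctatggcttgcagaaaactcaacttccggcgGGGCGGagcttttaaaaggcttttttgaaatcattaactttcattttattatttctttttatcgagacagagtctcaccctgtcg
CD44: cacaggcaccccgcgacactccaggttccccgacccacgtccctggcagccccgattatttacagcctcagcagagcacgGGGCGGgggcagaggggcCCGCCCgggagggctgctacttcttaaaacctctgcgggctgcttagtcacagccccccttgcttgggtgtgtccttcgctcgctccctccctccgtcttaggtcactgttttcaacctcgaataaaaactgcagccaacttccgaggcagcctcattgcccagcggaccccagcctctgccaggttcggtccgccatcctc
ITGB1: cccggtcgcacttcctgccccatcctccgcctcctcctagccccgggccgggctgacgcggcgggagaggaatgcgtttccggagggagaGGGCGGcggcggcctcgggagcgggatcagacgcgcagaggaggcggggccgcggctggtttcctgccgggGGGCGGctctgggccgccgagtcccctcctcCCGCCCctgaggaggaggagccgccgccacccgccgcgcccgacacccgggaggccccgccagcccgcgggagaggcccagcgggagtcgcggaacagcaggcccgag
CDH2: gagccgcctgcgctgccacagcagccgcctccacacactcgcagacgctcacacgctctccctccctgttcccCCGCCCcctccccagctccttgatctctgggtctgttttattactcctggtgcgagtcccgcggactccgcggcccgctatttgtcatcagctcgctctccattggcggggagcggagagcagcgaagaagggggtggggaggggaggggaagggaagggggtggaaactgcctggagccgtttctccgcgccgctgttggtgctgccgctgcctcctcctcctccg
ITGB6: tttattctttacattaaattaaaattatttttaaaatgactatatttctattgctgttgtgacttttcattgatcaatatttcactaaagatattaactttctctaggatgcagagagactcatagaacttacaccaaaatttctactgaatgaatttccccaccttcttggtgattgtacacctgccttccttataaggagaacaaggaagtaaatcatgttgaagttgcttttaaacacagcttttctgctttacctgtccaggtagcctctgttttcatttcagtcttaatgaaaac
ITGB8: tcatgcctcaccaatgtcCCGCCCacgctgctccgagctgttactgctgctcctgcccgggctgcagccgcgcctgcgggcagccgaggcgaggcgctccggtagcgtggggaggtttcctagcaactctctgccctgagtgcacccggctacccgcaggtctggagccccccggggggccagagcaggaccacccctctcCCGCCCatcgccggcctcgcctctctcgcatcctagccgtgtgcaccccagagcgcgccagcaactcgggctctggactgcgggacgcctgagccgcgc
The motif occurred at least once in 7 of 9 windows of genes at 20 CPM or more (77.8%). It occurred in 1 of 9 windows of counted genes below 20 CPM (11.1%) and in 5 of 12 windows of genes at 0 (41.7%). Of all 35116 windows 45.0% had it, so its share did not follow the level through the 3 groups. The window of ITGB1 held it 3 times at a GC content of 78.3%, and the window of ITGB6 had no match and no CpG at a GC content of 31.7%. The window of ITGB8, which was also at 0, held the motif 2 times at a GC content of 71.7%, so an uncounted gene can have a window like those of counted genes. The ratio of observed to expected CpG had a median of 0.626 in windows of genes at 20 CPM or more. It was 0.627 for counted genes below 20 CPM, 0.437 for genes at 0 and 0.579 in all windows. The range among genes at 0 was wide, up to 1.04 for CDH23. CACCTG, the E-box that SNAI and ZEB factors can bind, was found in 2 of 9 windows of genes at 20 CPM or more. It was found in 0 of 9 for counted genes below 20 CPM, in 2 of 12 for genes at 0 and in 20.6% of all windows. TGACTCA, the AP-1 motif, was found in 1 of 9 windows of genes at 20 CPM or more, that of ITGA5, and in 4.95% of all. A match is a description of the letters in the window and not a site in use.

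Among the alpha chains, the laminin receptors had the most counts. ITGA3, whose chain pairs with the beta chain of ITGB1 to bind laminin in basement membranes, stood at 432 CPM (400 to 466), with 443 CPM in set 1 and 421 CPM in set 2. It had a count in 303 cells (50.2%), and 83 cells held 3 or more. That level lay above 97.3% of all rows that had counts. The other laminin chains were far lower. ITGA6, which also serves in hemidesmosomes, had 21.5 CPM (14.8 to 30.1), and ITGA7, the laminin receptor of muscle, had 1 count.

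The 4 collagen receptor chains summed to 101 CPM. ITGA11, the fibrillar collagen receptor chain of fibroblasts and other mesenchymal cells, led with 53.3 CPM (42.4 to 66.2), seen in 9.95% of cells. ITGA2, known from platelets and epithelia, had 36.4 CPM (27.5 to 47.3). ITGA10, known from cartilage, had 9.11 CPM and ITGA1 had 4 counts. The levels of ITGA11 were 57.2 CPM in set 1 and 49.2 CPM in set 2, within each other's intervals.

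The chains that recognise the RGD tripeptide of fibronectin and vitronectin were represented by ITGA5. Its chain forms the main fibronectin receptor, and it stood at 106 CPM (90.4 to 124) and was counted in 22.1% of cells. ITGAV, the common partner of several beta chains, had 5 counts (3.25 CPM), ITGA8 had 3 and the platelet chain ITGA2B had 1. Of the 6 leukocyte and VCAM1-binding chains, ITGAL, ITGAM, ITGAX and ITGA9 were at 0. All but ITGA9 are chains of leukocytes. ITGA4, a receptor chain for VCAM1 and fibronectin known from leukocytes and neural crest, had 11 counts. ITGAE, the chain that lets intraepithelial lymphocytes bind E-cadherin, was an exception at 50.1 CPM (39.5 to 62.6) with a count in 61 cells. Its gene overlaps HASPIN on the opposite strand by 2797 bases in GENCODE annotation, the row of HASPIN had 8 counts, and the sources used here do not say whether counting used the strand.

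ITGB5 and ITGB1 made up nearly all beta chain counts. ITGB5, whose chain binds vitronectin together with that of ITGAV, had 345 CPM (316 to 375) and was seen in 46.9% of cells. The value was 345 CPM in set 1 and 345 CPM in set 2. ITGB1, the shared partner of most alpha chains listed here, had 193 CPM (172 to 216) and was seen in 30.0% of cells. ITGB4, the hemidesmosome chain, had 11 counts and ITGB3, the vitronectin receptor chain of platelets and osteoclasts, had 6, all of them in set 1. ITGB2, the beta chain of leukocytes, and ITGB6, ITGB7 and ITGB8 were at 0.

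For known heterodimers, the counts of both chains often differed widely. ITGB5 had 530 counts while its only listed partner ITGAV had 5, and all 5 cells with ITGAV also had ITGB5. ITGAE had 77 counts while its partner ITGB7 had 0. The summed level of the 12 listed partners of ITGB1 exceeded that of ITGB1, because ITGA3 alone was above it. Both chains of the ITGA3 and ITGB1 pair were seen in 103 of 603 cells (17.1%), those of ITGA5 and ITGB1 in 47 (7.79%), of ITGA2 and ITGB1 in 28 (4.64%) and of ITGA11 and ITGB1 in 25 (4.15%). These numbers are at full depth and depend on it. With cells thinned at random to equal depth, as described below, ITGA3 and ITGB1 met in 33 cells, where the product of both shares gives 32.9. For ITGA5 it was 10 against 12.2, for ITGA2 7 against 4.24 and for ITGA11 3 against 5.48. No cell had counts of both ITGA6 and ITGB4, or of both ITGAV and ITGB3. The product at equal depth gives only 0.064 and 0.0036 cells for these pairs, so this cannot show whether their chains occur together.

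Of the 23 cadherins 15 were at 0 and 8 had a count, where 50.4% of all rows had a count. CDH2, the gene of N-cadherin, stood at 151 CPM (132 to 172), seen in 151 cells, and at 158 CPM in set 1 and 144 CPM in set 2. No other type I cadherin was counted more than once. CDH1, the gene of E-cadherin, and CDH3 and CDH4, those of P-cadherin and R-cadherin, were at 0, and CDH15, the cadherin of muscle precursors, had 1 count. Of 13 type II cadherins 5 had a count. CDH11, found in mesenchyme and osteoblasts, had 40.3 CPM (30.9 to 51.7) and was seen in 8.13% of cells, and CDH24 had 18.9 CPM (12.6 to 27.1). CDH10 had 8 counts, CDH7 had 4 and CDH18 had 1. CDH5, the endothelial cadherin, and CDH19, a marker of Schwann cell precursors, were at 0. CDH13, whose product is held by a lipid anchor and lacks a cytoplasmic tail, had 11.7 CPM. The genes of the factors known to repress CDH1 had counts, with SNAI1 at 60.5 CPM, ZEB1 at 41.0 CPM, ZEB2 at 17.6 CPM in a joint row and SNAI2 at 11.7 CPM. These were also chosen after their values were seen, and a link between their levels and CDH1 was not tested.

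Deeper cells show more genes, so shares of cells were compared after each cell was thinned at random to 1100 counts, which kept 560 cells and left out 43. At that depth 457 cells (81.6%) had a count of at least 1 of the 49 genes and 103 had none. The median was 1 gene per cell and the highest 7. ITGA3 was seen in 33.2% of cells (29.3 to 37.3), ITGB5 in 28.0% (24.4 to 32.0), CD44 in 20.5% (17.3 to 24.1), ITGB1 in 17.7% and CDH2 in 13.2%. Any alpha chain was seen in 51.1% of cells, any beta chain in 41.1% and any cadherin in 21.8%. The level of free RNA could not be read from a second cell type, since the pool holds 1 line. Erythroid and platelet markers were at 0 in all cells, while CD68 was seen in 11.4% and PTPRC in 4.15% of the 603 cells at full depth.

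**Figure D2:**
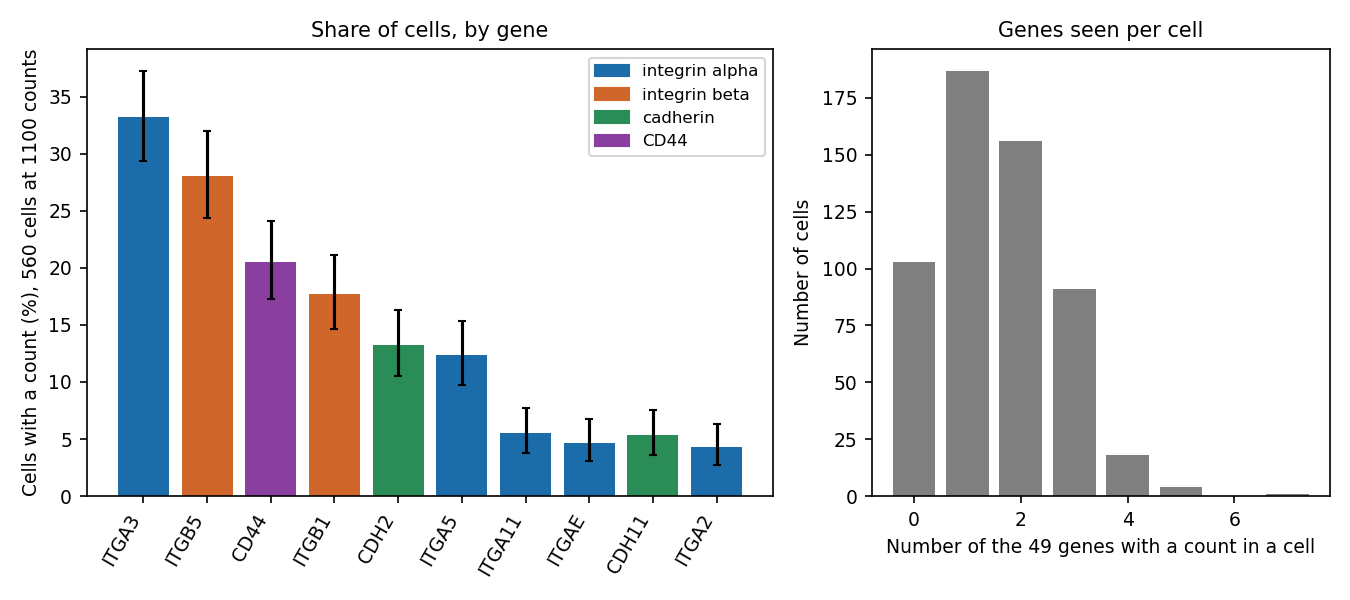
Left, share of 560 cells, each thinned to 1100 counts, with a count of each of the 10 genes that had at least 50 counts, with 95% binomial intervals. Right, number of cells by how many of the 49 genes had a count. ITGA3 was seen in 33.2% of these cells, and 103 cells showed none of the genes.

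Counts of some of the genes were gathered in fewer cells than usual. The 10 cells with the most ITGA3 held 16.4% of its counts, while rows of like total had a median of 11.4%, and 7.10% of those rows were more concentrated. For CDH2 the 10 cells held 21.1%, against a median of 16.4% in rows of like total. For ITGA11 they held 34.1%, against 26.6% in rows of like total. ITGA5 was spread as usual, with 18.4% in its 10 cells against 18.6%. The deepest cell held 90 of the 2675 counts of all 49 genes (3.36%) and 2.76% of all counts.

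The wider adhesion machinery had counts for most of its parts. Of 43 genes of focal adhesions 41 had a count and 34 reached 20 CPM. The highest were ZYX at 449 CPM, FLNA at 437 CPM, PXN at 371 CPM and TLN1, the gene of talin, at 291 CPM. Kindlin-1 (FERMT1) and PARVG were at 0. Of 15 tetraspanin, syndecan and related genes 13 had a count, led by CD63 at 1601 CPM and CD81 at 968 CPM, with CD151, whose product binds the laminin-binding integrins, at 425 CPM. Among catenins and junction genes, CTNNA1 (alpha-catenin) had 267 CPM and JUP (plakoglobin) 31.9 CPM, and CTNND1 (p120-catenin) had 1 count. For CD44, the actin linkers MSN (moesin) and EZR (ezrin) had 323 and 136 CPM, and the gelatinase gene MMP2 had 847 CPM.

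The matrix genes that the receptors bind were also counted. Collagens summed to 986 CPM over 12 genes, with COL1A1 at 301 CPM, COL6A2 at 214 CPM in a joint row and COL6A1 at 173 CPM, while COL1A2 was at 0. Laminins and other basement membrane genes summed to 470.2 CPM over 14 genes, with LAMC1 at 180 CPM and LAMB1 at 87.8 CPM. LAMA5 led the laminin alpha chains at 70.2 CPM in a joint row, and LAMA1, LAMA2 and LAMA4 were at 0. Genes of fibronectin, vitronectin and other RGD proteins summed to 339 CPM over 16 genes, with FN1 at 56.6 CPM. Of 11 cell surface ligands, VCAM1 and MADCAM1 were at 0 and JAM3 led at 50.7 CPM. Among adhesion molecules of other families, MCAM had 74.8 CPM, NCAM1 52.7 CPM and PCDH7 41.6 CPM, and 9 of 30 were at 0.

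Few of the genes went together in the same cells. Over the 45 pairs of the 10 genes with at least 50 counts, Spearman's rho across the 560 thinned cells lay between -0.11 and 0.11 (median -0.0042), and such weak values in sparse counts are no finding. Because a thinning is random, the number of cells with both genes was taken over 20 thinnings, an alternative added after the data were seen. ITGA3 and ITGB5 met in a median of 61 cells, where the product of their shares gives 52.5, and the number was above the product in 20 of 20 thinnings. ITGA3 and CD44 met in 46 cells against 38.1, in 20 of 20, and ITGB5 and CD44 in 38.5 cells against 33.3, in 19 of 20. These differences are small beside the counting error of such numbers and were not tested. ITGA3 and ITGB1, the chains of a known receptor, met in 29.5 cells against 30.4. CD44 and CDH2 met in 12 cells (7 to 19 over thinnings) against 15.4, and CD44 and CDH11 in 3 cells (1 to 5) against 5.17, with 3 and 0 of 20 thinnings above the product. CDH2 and CDH11 met in 6 cells against 3.25, above the product in 17 of 20. All thinnings draw on the same cells, so their agreement does not stand for replicates.

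**Figure D3:**
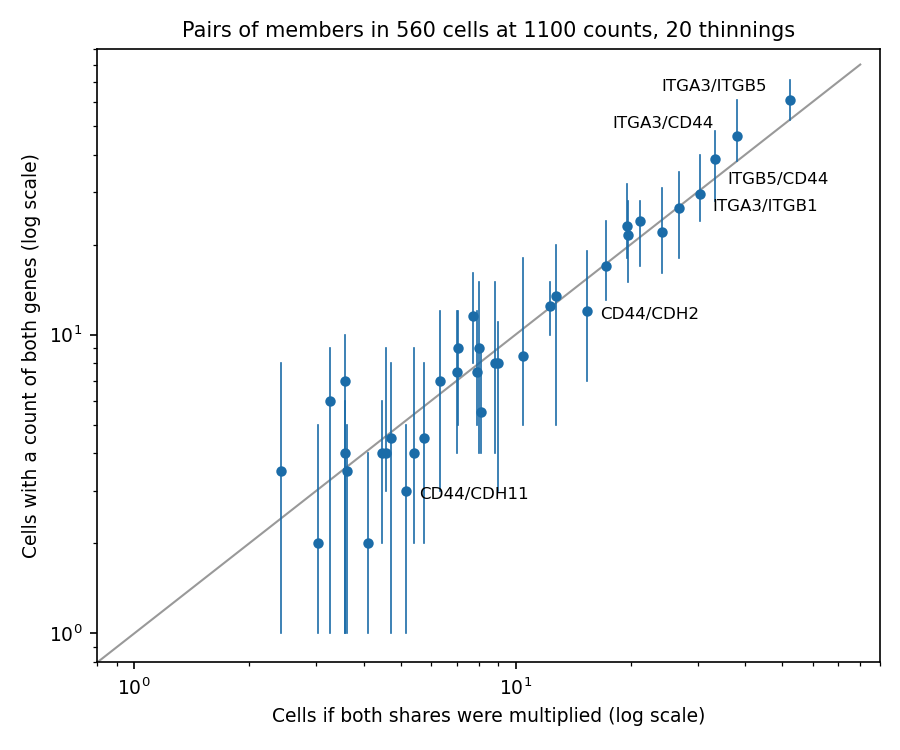
Cells with a count of both genes of a pair (y axis) against the number that the product of both shares gives (x axis), both on log axes, in 560 cells at 1100 counts. Points are medians of 20 thinnings, bars their range, and the line marks equality, for the 36 of 45 pairs that met in at least 1 cell in every thinning. The ITGA3 and ITGB5 pair lies at 61 cells against 52.5.

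The genes were next compared between cells of high and low proliferation score. A score is a cell's thinned count over 55 G2/M genes or 51 G1/S genes. The 186 cells of highest score were set against the 186 of lowest score, with full counts summed, as a log2 ratio of CPM with a 95% interval. These ranges of cells are not types. The median total was 2532 counts in the high G2/M cells and 2056.5 in the low ones. All 49 genes summed to 1704 CPM in high and 1959.8 CPM in low G2/M cells, a log2 ratio of -0.20 (-0.34 to -0.07). Split at the median score it was -0.068 (-0.18 to 0.043), and in set 2 alone -0.11 (-0.31 to 0.10), with intervals that hold 0. Of the 10 genes with at least 50 counts, 3 were at least 2-fold lower and 0 at least 2-fold higher. Among 4600 rows with that many counts, 1.61% were that much lower and 4.09% that much higher. The 3 lower genes, CDH11, ITGA2 and ITGA11, had only 62, 56 and 82 counts in all. Many of the 4600 rows had far more counts, where counting error gives a 2-fold ratio less often. Rows of like count were not set apart, here or for such shares in the later comparisons.

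CDH11 differed most with the G2/M score, at 19.9 CPM in high and 69.0 CPM in low cells, a log2 ratio of -1.80 (-2.94 to -0.77). The median of 20 other thinnings was -1.86. The collagen receptor chains ITGA2 and ITGA11 were also lower in high G2/M cells. ITGA2 had 23.5 CPM in high and 51.2 CPM in low cells, a ratio of -1.13 (-2.23 to -0.08) with a median of -1.25 over thinnings. ITGA11 had 30.7 CPM in high and 64.6 CPM in low cells, a ratio of -1.07 (-2.03 to -0.16) with a median of -0.90, but -0.39 (-1.28 to 0.50) in cells thinned to 1500 counts and -0.31 (-0.97 to 0.35) split at the median. ITGA3 had 394 CPM in high and 541 CPM in low cells, a ratio of -0.46 (-0.73 to -0.19) with a median of -0.47. CD44 had 256 CPM in high and 247 CPM in low cells, with an interval of -0.32 to 0.42. ITGB5 stood at 0.27 (-0.04 to 0.57). ITGAE went the other way, with 29 counts in high and 13 counts in low cells, a log2 ratio of CPM of 0.85 (-0.13 to 1.92) that was above 0 in 20 of 20 thinnings with a median of 0.61. With each set split by itself it was 1.94 in set 1 and 0.17 in set 2. In the same cells the adrenergic list, genes such as GATA3 of the sympathetic state, stood at -0.58 (-0.71 to -0.44), and the part of depth and of cell state in these ratios was not tested.

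By the G1/S score, which marks DNA synthesis, the 49 genes together stood at -0.07 (-0.21 to 0.07). ITGA2 was at least 2-fold higher, 1 of 10 genes against 1.93% of 4606 rows, and 0 of 10 were at least 2-fold lower, against 1.63% of rows. It had 56.9 CPM in high and 23.4 CPM in low cells, a ratio of 1.28 (0.24 to 2.43) with a median of 1.03 over thinnings. ITGA2 was thus lower with the G2/M score and higher with the G1/S score, on 36 and 40 counts. CD44 had 210.1 CPM in high and 272 CPM in low G1/S cells, a ratio of -0.37 (-0.76 to 0.01) with a median of -0.64. ITGA3 stood at -0.33 (-0.60 to -0.05) with a median of -0.36.

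With the mesenchymal score, CD44, ITGA3 and ITGA11 were higher, with intervals above 0 and ratios above 0 in 20 of 20 thinnings. The sums of the alpha and of the beta chains were higher in the single thinning used for the score, and were not taken over other thinnings. The score is the count over 24 genes, none of them among the 49, and VIM, the gene of vimentin, made up 5649 of their 7048 CPM, so it ranks cells mostly by VIM. The 49 genes summed to 2032 CPM in cells of high score and 1489.7 CPM in cells of low score, a log2 ratio of 0.45 (0.31 to 0.59) with a median of 0.35 over thinnings. Alpha chains stood at 0.55 (0.33 to 0.76), beta chains at 0.41 (0.16 to 0.66) and cadherins at -0.08 (-0.46 to 0.30). CD44 had 298 CPM in high and 177 CPM in low cells, a ratio of 0.75 (0.36 to 1.15) with a median of 0.79. ITGA3 had 542 CPM in high and 345 CPM in low cells, a ratio of 0.65 (0.37 to 0.93), and ITGA11 68.2 CPM in high and 34.9 CPM in low cells, a ratio of 0.97 (0.10 to 1.89). Over thinnings the medians were 0.35 for ITGA3 and 0.86 for ITGA11, and for ITGB5 the ratio was 0.46 and the median 0.11. ITGA3 stood at 0.98 in set 1 and 0.18 in set 2, each split by itself. With the split of all cells kept, ITGA11 stood at 1.60 in set 1 and 0.34 in set 2. Alpha chains then stood at 0.83 and 0.25, and beta chains at 0.48 and 0.34. The intervals of ITGB1 (0.24), ITGA2 (0.21), ITGA5 (0.26) and ITGAE (0.68) held 0. Over thinnings ITGA2 and ITGAE were nonetheless above 0 in 20 of 20, with medians of 0.50 and 0.46, larger than that of ITGA3. ITGB1 and ITGA5 had medians of 0.29 and 0.26 and were above 0 in 19 of 20. CDH11 went the other way, at 22.7 CPM in high and 57.5 CPM in low cells, a ratio of -1.34 (-2.45 to -0.32) with a median of -0.63, and -0.25 (-1.20 to 0.70) with another seed. It was the only 1 of 10 at least 2-fold lower, against 1.99% of 4627 rows, and 0 of 10 were at least 2-fold higher, against 1.21%. Collagen genes were higher in the same cells at 0.71 (0.52 to 0.89), with all 6 measured genes above 0, and so were RGD ligands at 0.72 (0.36 to 1.08). Adrenergic genes were lower at -0.70 (-0.84 to -0.56).

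**Figure D4:**
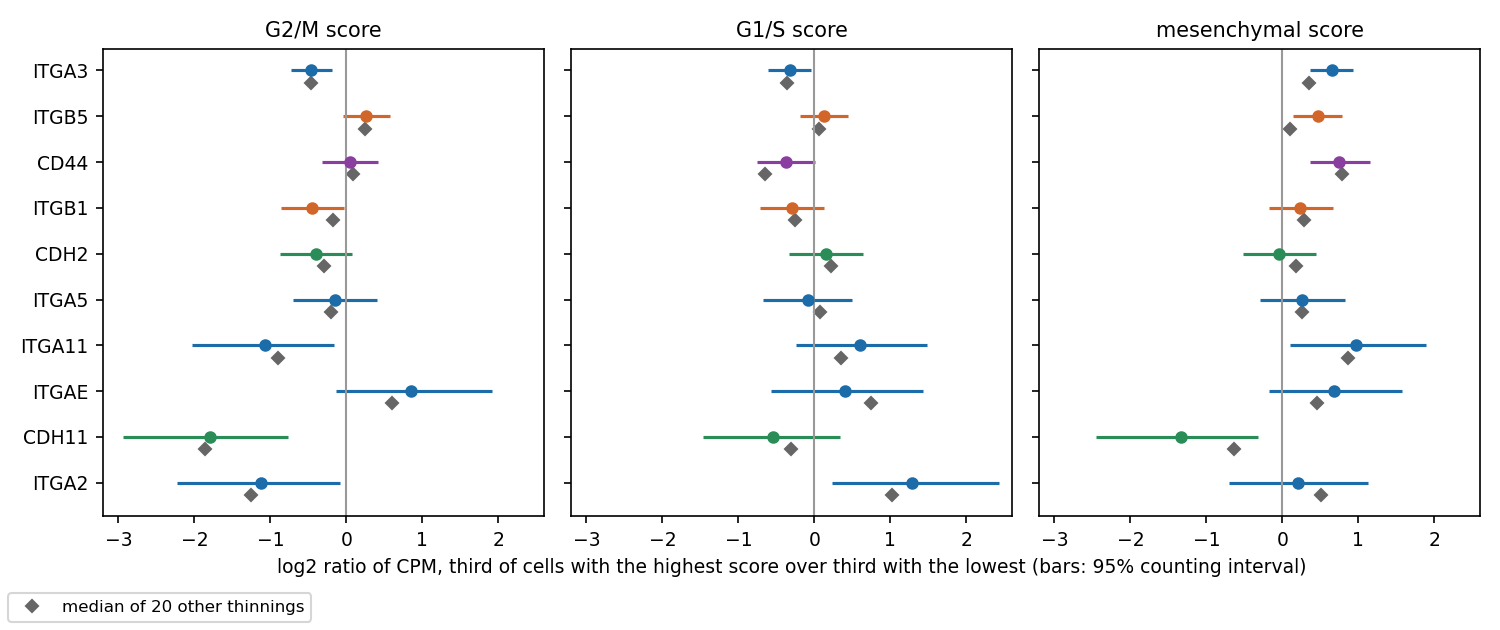
Log2 ratio of CPM, 186 cells of high score over 186 cells of low score, for the 10 genes with at least 50 counts and 3 scores. Points are the values with 95% counting intervals and diamonds the median of 20 other thinnings. CDH11 lies at -1.80 for the G2/M score and CD44 at 0.75 for the mesenchymal score.

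What the leading genes went with was read from cells with at least 1 thinned count of a gene against cells with none. Cells without a thinned count can hold a full count, so the groups are mixed. Named are the 5 genes of highest and the 5 of lowest ratio among rows with at least 100 counts. They are the extremes of many ratios, which their intervals do not allow for. CD44 was counted in 115 cells and not in 445. Of the 9 other genes measured, 1 was at least 2-fold lower, CDH11, and 0 higher, against 2.09% and 0.582% of 4637 rows. CDH11 had 15.1 CPM in cells with CD44 and 49.1 CPM in cells without, a ratio of -1.70 (-3.37 to -0.39) with a median of -1.20 over thinnings. ITGA3 had 593 CPM in cells with CD44 and 387 CPM in cells without, a ratio of 0.62 (0.37 to 0.86) with a median of 0.43.

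The genes lowest in cells with CD44 were RET, SHD, INS-IGF2, CHGA and DDC. RET, the receptor kinase for GDNF family ligands, had 3.03 CPM in cells with CD44, which is 1 count, and 84.3 CPM in cells without, a ratio of -4.80 (-10.1 to -2.29). Its median over thinnings was -2.30. CHGA, a granin of secretory granules, had 12.1 CPM in cells with CD44 and 143 CPM in cells without, with a median of -4.04, but 83.9% of its counts lay in 10 cells. DDC, the aromatic amino acid decarboxylase, had 27.2 CPM in cells with CD44 and 244 CPM in cells without, a ratio of -3.16 with a median of -1.59. SHD, an adaptor gene, and INS-IGF2, in a row shared with INS, had medians of -3.04 and -2.86. Their counts were gathered too, with 44.3% of SHD and 48.8% of INS-IGF2 counts in 10 cells. For RET and DDC 10 cells held 33.0% and 36.2%. In every one of the 20 thinnings all 5 lowest genes were lower in cells with CD44. The 5 were picked in these same cells, and each thinning only regroups the cells while the same full counts are summed. This agreement is thus no separate support. The adrenergic list stood at -0.59 (-0.75 to -0.44), at -0.24 in set 1 and -0.98 in set 2. It holds RET, CHGA and DDC, so its sum is not separate from the genes named here. Of its 9 genes with at least 50 counts 1 was above 0, and the median over these genes was -0.46. Among the genes highest in cells with CD44, HSPA5, an endoplasmic reticulum chaperone, had 266 CPM in cells with CD44 and 134 CPM in cells without, a ratio of 0.99 with a median of 0.56, and PTPN14, a phosphatase, 188 CPM in cells with and 95.5 CPM in cells without, with a median of 0.55. LOC100499466, BID and MPRIP had medians of 0.84, 0.24 and 0.31.

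Cells with ITGA3 (186, against 374 without) were set apart by other genes at the high end and by 4 of the same genes at the low end. SERPINB2, an inhibitor of plasminogen activators, had 465 CPM in cells with ITGA3 and 206 CPM in cells without, a ratio of 1.17 (0.90 to 1.45) with a median of 1.02 over thinnings. AMIGO2, a transmembrane adhesion protein gene, had 257 CPM in cells with and 121 CPM in cells without, with a median of 0.96. CDK2AP2 and KIAA0368 had medians of 0.73 and 0.55. The lowest were CHGA, SHD, the INS-IGF2 row, RET and NPY, with medians of -4.14 (over 19 thinnings), -2.73, -2.35, -1.31 and -0.90. For NPY 10 cells held 44.1% of the counts. The adrenergic list, which holds CHGA and RET, stood at -0.63 (-0.77 to -0.50). Of its 9 genes with at least 50 counts 1 was above 0, and the median over these genes was -0.84. G2/M genes stood at -0.20 (-0.26 to -0.15). Among the members, ITGB5 had 430.0 CPM in cells with ITGA3 and 302 CPM in cells without, a ratio of 0.51 (0.25 to 0.77) with a median of 0.46. Of the 9 members measured, 0 were 2-fold higher or lower, against 0.582% and 1.1% of 4637 rows.

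**Figure D5:**
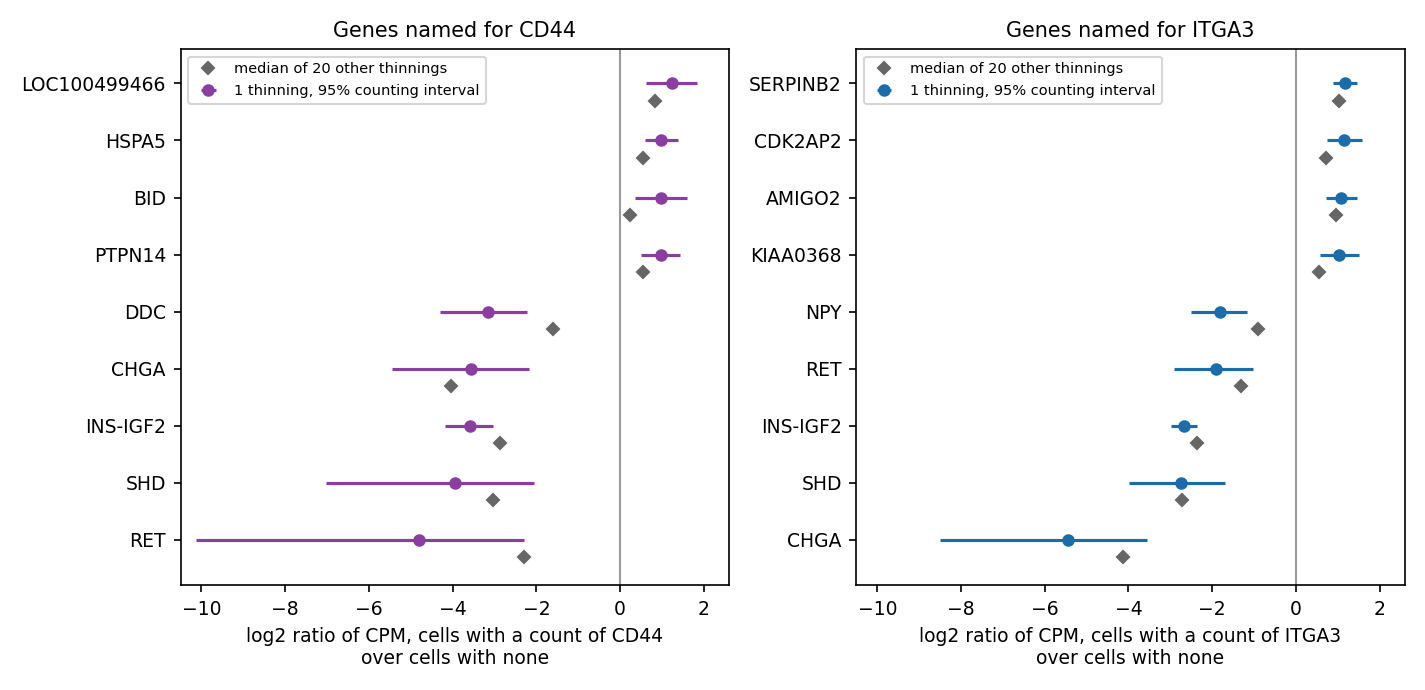
Log2 ratio of CPM in cells with a count of CD44 (left) or ITGA3 (right) over cells with none, for the 4 highest and 5 lowest genes with at least 100 counts. Points are the values with 95% counting intervals and diamonds the median of 20 other thinnings. RET lies at -4.80 and -2.30 for CD44, and SERPINB2 at 1.17 and 1.02 for ITGA3.

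For ITGB5 (157 cells with and 403 without) the adrenergic list stood at 0.06 (-0.07 to 0.18). ITGA3 was higher in cells with ITGB5, at 534 CPM against 392 CPM in cells without, with a median of 0.42 over thinnings, and CD44 had a median of 0.37. CHRNA3, a nicotinic receptor subunit gene, was lowest, with 25.5 CPM in cells with ITGB5 and 90.4 CPM in cells without, a ratio of -1.83 (-2.88 to -0.92) with a median of -2.27. GCG, MTG1 and NPY were also among the lowest with medians of -1.16, -0.67 and -0.78, and OAT had a median of 0.0088. For GCG 10 cells held 59.5% of the counts, for NPY 44.1% and for CHRNA3 36.0%. Of the highest, BCL2L1 and ZFP36L2 had medians of 0.56 and 0.44, TBC1D9B and CDCA8 of 0.29 and 0.23, and CHGA stood at 0.99 with a median of -3.91. Of the 9 members 0 were 2-fold higher or lower, against 0.194% and 0.992% of 4637 rows.

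CDH2 was counted in 74 cells, and 486 were without. Among the members CDH11 had a median of 0.80 over thinnings, although the single thinning gave -0.27 (-1.47 to 0.77). CD44 had 174 CPM in cells with CDH2 and 250.1 CPM in cells without, a ratio of -0.53 (-1.02 to -0.07) with a median of -0.13. Again 0 of 9 were 2-fold higher or lower, against 0.97% and 2.29% of 4637 rows. RPL34, TIAL1 and FAM136A were lowest with medians of -1.89, -1.17 and -1.36, while P4HA2 and COPS8 had -0.45 and -0.64. For RPL34 10 cells held 60.2% of the counts. Of the highest, DKK2, a secreted Wnt modulator, ANP32A and LAMA5 had medians of 0.61, 0.57 and 0.47, and UBE2G2 and CHD8 of 0.37 and 0.20.

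CDH11 was counted in only 30 cells, and 530 were without. CD44 had 109 CPM in cells with CDH11 and 245 CPM in cells without, a ratio of -1.16 (-2.30 to -0.22) with a median of -1.28, and was the only 1 of 9 members at least 2-fold lower, against 10.8% of 4637 rows. None of the 9 was at least 2-fold higher, against 4.18%. CDH2 had 243 CPM in cells with CDH11 and 145 CPM in cells without, a ratio of 0.75 (0.01 to 1.42) with a median of 0.71. G2/M genes stood at -0.50 (-0.64 to -0.36). The complement gene C7 had 559.7 CPM in cells with CDH11 and 131 CPM in cells without, with a median of 1.66, and AP3S2 had a median of 1.14. CHGA, SHD and the INS-IGF2 row were named as higher as well, although 10 cells held 83.9%, 44.3% and 48.8% of their counts. SHD and the INS-IGF2 row lay above 0 in 16 and 19 of 20 thinnings, CHGA in 13 of the 19 that gave a value, and CHGA was at 5.25 in set 1 and -1.69 in set 2. AGBL5, CDCA8, SEC24C and WASF3 had 0 counts in cells with CDH11 and 90.8, 101, 88.6 and 80.1 CPM in cells without, and IPO5 had 1 count. At the floor of 3 counts over the 30 cells the log2 ratios of the first 4 would be -1.31, -1.47, -1.28 and -1.13, and the upper limits of their 95% intervals were -0.995, -1.16, -0.96 and -0.81.

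Gene by gene across the 560 cells, the genes most like each leading gene by Spearman's rho among 2082 rows were weakly correlated. With ITGA3, CDK2AP2, RPL38, S100A4 and S100A16 had a rho of 0.20, 0.18, 0.16 and 0.15, where 1% of rows had a rho above 0.12. For CD44 the first 5 were S100A16 at 0.18, MT2A, MMP2, PTPN14 and HSP90B1 in a joint row, down to 0.14. For ITGB5 they were C19orf70 at 0.16, PAPSS1, LOC388796, EPHA2 and VARS. For CDH2 they were ARL6IP1 at 0.17, NR2F6, EIF3A, SNRNP200 and C20orf27, and for CDH11 LRBA at 0.17, NSMCE2, GANAB and EBPL. All points share 1 table and 1 depth, and values of this size in sparse counts are a description only.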

How the data were processed

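Single SK-N-AS cells were profiled by MARS-seq, per the labels' protocols. The authors deposited 1 table of raw counts per gene row and cell. Per the submitters' processing notes, the aligner was Bowtie2 (version 2.1.0) and the build hg19. How counts were made, the annotation, strand setting and filter on cells, and whether counts are molecules or reads, are, in the sources used here, not given. A row named unknown, with 2 counts, was left out. Labels describe single cells sorted into wells, so no doublet caller was run.

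From the counts, CPM with exact Poisson intervals, shares of cells with Clopper-Pearson intervals, and log2 ratios of summed CPM with exact conditional binomial intervals were computed (95%, counting error only). Cells were thinned to 1100 counts with a fixed seed before shares, scores and splits. Cells with fewer were left out there. The depth of 1000 to 42404 counts per cell limits every share. The ratio was tested on simulated counts drawn from pooled gene shares, without differences between cells. That checks the computation and cannot show how the intervals behave where counts are gathered in few cells. Values came from Python 3.11.15, numpy 2.4.6, scipy 1.17.1, pandas 2.3.3 and matplotlib 3.10.9.

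The genes, lists and rules were chosen with earlier results of these data known. Named were all 49 genes by level; the 4 highest of each list; for CD44 and the 2 integrins and 2 cadherins with most counts, the other members with at least 50 counts, the 5 highest and 5 lowest ratios among rows with at least 100 counts and the 5 highest Spearman values among rows with a thinned mean of at least 0.1. Genes at 0 and single genes outside this rule were named after their values were seen. A few genes that this rule names are not reported here. Promoter sequences came from RefSeq on GRCh38.p14, matched by symbol for 30 genes, and the counts were made on hg19, so no coordinates were shared between them. Alternatives were other depths, seeds, totals, splits and minimum counts, each barcode set alone, and 20 further thinnings chosen after seeing the data.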

Additional observations from a re-analysis of the deposited data

How the results depend on the processing

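No paired analysis was possible because the columns carry no sample, and no replicate could be left out for the same reason. Of 93 recomputed values of the main results 81 stayed within the counting interval or, for counts of genes, within 1.5 times, and 12 moved. With ribosomal protein genes left out of the total, CPM became 870.0 for alpha chains, 659 for beta chains, 277 for cadherins and 283 for CD44. The ratio of all members by mesenchymal score was 0.61 in set 1, 0.24 in set 2 and 0.29 split at the median. For cells with CD44 the other members stood at 0.11 with another seed and at 0.11 on thinned counts, and for ITGA3 at 0.27 with another seed. For CDH11 they stood at -0.47 in set 1. With a minimum of 50 counts, 11 of 50 named genes were named again. A turn of sign was counted only for ratios whose interval in the main setting left out 0. Other changes of sign are among the ratios that stayed or moved. CDH11 by CDH2, for example, went from -0.27 to a median of 0.80 over thinnings. Of 555 member ratios 506 stayed within their interval, 45 moved outside it and 4 turned sign in this sense. With another seed these were ITGB5 by CD44 (-0.054), CDH11 by ITGA3 (0.33) and ITGB1 by ITGA3 (0.050), and at 1500 counts ITGA3 by CDH11 (0.10). Of 317 named gene ratios 223 stayed, 82 moved and 12 turned sign. By ITGB5, CHGA gave -4.06 with another seed, -3.44 at 1500 counts, -0.29 on thinned counts and -3.91 over 20 thinnings, OAT gave 0.093 with another seed and 0.0088 over thinnings, and NPY 0.086 in set 2. By CDH2, DKK2 gave -0.36 and RPL34 0.049 with another seed, and COPS8 0.11 at 1500 counts. In set 2 LOC100499466 by CD44 gave -0.088 and CHGA by CDH11 -1.69. The cause was not tested. ITGA3 by CD44 stood at 0.23 (-0.045 to 0.49) with another seed. Depth limits the named genes to rows with at least 100 counts.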
